A study of Mus musculus with 6 samples.

Results

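The cytoplasmic ribosomal protein genes code for the structural proteins of the ribosome outside mitochondria. They were taken here as the protein-coding genes of the GENCODE M21 annotation whose symbol starts with Rpl or Rps and a number, or is Rplp0, Rplp1, Rplp2 or Rpsa, leaving out the S6 kinases and symbols that end in -ps and a number. The rule matched 86 genes, and 83 of them averaged 0.5 FPKM or more (a fragment count scaled by exon length and library total, as deposited) over the 6 libraries, out of 14149 genes at or above that level and 54532 gene IDs in all. The 3 others are the paralogues Rpl3l, Rpl36al and Rpl10l. The 83 comprise 33 genes of the small 40S subunit, 48 of the large 60S subunit with its stalk, and Rps19bp1 and Rpl7l1, which match by symbol but are known as an SIRT1 regulator and a factor of 60S assembly and not as proteins of the finished ribosome.

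RNA-seq was made from mouse heart ventricles at E12.5, taken from embryos with a conditional knockout of LSD1 and from control embryos of the same age, with 3 libraries in each group. LSD1, encoded by Kdm1a, is a histone demethylase that removes methyl groups from lysine 4 of histone H3. The labels give neither the driver of the deletion, nor the strain or alleles, nor whether each library is 1 embryo or a pool, so the p-values below measure the spread between these libraries. Fewer cells of a type and less RNA per cell cannot be told apart in such tissue.

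A ribosome holds 1 copy of nearly every ribosomal protein, except for the acidic stalk proteins, so the genes of the family are usually expressed in step. Their mRNAs start with a run of pyrimidines, the 5′ terminal oligopyrimidine tract, through which mTOR and LARP1 control their translation. Several of the proteins have further roles: Rpl5 and Rpl11 bind the p53 regulator MDM2 when ribosome assembly is disturbed, loss of 1 copy of Rps19 or Rpl5 causes Diamond-Blackfan anaemia in people, and Rps6 is phosphorylated by S6 kinases.

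The stretch around the transcription start shows the tract that most of the family shares. RefSeq (GRCm38.p6) held a start for 63 of the 83 genes. A run of a C followed by at least 6 of C or T, on the gene's strand and between 30 bases before and 50 bases after a listed start, was found in 49 of the 63 (77.8%), against 37.0% of the 27025 symbols in the RefSeq table. The windows below are shown for the called gene, for 2 genes whose groups did not overlap, for 3 genes named for their known roles and for 1 gene without a match. Each is 80 bases long and written 5′ to 3′ on the gene's strand, with the pyrimidine run in capitals.
Rps12 (chr10:23787160-23787239, minus strand): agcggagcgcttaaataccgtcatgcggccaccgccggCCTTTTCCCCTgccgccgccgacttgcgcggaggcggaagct
Rpl36a (chrX:134585624-134585703, plus strand): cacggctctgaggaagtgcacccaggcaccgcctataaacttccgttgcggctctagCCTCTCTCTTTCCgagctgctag
Rpl35 (chr2:39005082-39005161, minus strand): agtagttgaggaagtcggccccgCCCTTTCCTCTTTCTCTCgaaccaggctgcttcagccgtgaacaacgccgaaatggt
Rpl11 (chr4:136053344-136053423, minus strand): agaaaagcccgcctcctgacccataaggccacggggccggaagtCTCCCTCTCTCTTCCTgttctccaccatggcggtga
Rps6 (chr4:86857318-86857397, minus strand): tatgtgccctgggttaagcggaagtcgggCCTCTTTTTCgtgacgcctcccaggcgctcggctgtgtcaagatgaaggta
Rpl5 (chr5:107900498-107900577, plus strand): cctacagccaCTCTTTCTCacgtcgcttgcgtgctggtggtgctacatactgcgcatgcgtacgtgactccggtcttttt
Rpsa (chr9:120127736-120127815, plus strand): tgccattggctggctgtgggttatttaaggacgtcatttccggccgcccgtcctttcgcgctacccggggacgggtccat
Over the 300 bases from 250 before to 50 after the start, on both strands, the ETS core CCGGAAG was found in 41.3% of the 63 genes, against 9.93% of all symbols. The YY1 core ATGGCGG was found in 17.5% of them, against 4.69% of all symbols. The E-box CACGTG stood in 9.52% against 8.09%, and TATAAA in 11.1% against 15.7%. These are matches of letters near annotated starts, which can lie several bases from the start in use, and they say nothing of binding.

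Many genes of the family have near-identical copies elsewhere in the genome, and a read from a shared stretch cannot be given to 1 of them. Of the 83 genes, 75 shared at least one 100-base window of their transcript with another annotated gene, and the median gene shared 43.0% of its windows. The first 120 coding bases of Rps12 and of its annotated copy Rps12-ps3 on chromosome 19 show this, as do those of Rps27, its copy Rps27rt and its diverged paralogue Rps27l. Capitals mark the bases of Rps27l that differ from Rps27; the sequences are from the GENCODE M21 transcripts.
Rps12 (chromosome 10): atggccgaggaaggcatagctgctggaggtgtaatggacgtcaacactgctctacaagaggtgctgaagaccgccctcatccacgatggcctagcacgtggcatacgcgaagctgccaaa
Rps12-ps3 (chromosome 19): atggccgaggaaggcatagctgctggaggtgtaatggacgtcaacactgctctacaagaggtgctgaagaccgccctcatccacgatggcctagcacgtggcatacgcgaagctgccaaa
Rps27 (chromosome 3): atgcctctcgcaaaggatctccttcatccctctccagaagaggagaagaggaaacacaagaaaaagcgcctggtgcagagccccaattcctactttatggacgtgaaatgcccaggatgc
Rps27rt (chromosome 9): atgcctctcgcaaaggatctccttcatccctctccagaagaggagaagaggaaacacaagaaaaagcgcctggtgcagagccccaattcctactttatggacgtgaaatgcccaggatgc
Rps27l (chromosome 9): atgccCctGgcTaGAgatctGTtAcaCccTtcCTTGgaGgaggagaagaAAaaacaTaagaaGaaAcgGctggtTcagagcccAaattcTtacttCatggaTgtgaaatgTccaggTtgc
Rps12 and Rps12-ps3 were identical over the first 132 coding bases. Rps27 and Rps27rt were identical over all 255 coding bases, stop codon included, whereas Rps27l differed from Rps27 at 61 of them (76.1% identity).

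Kdm1a had 10.71, 11.77 and 10.96 FPKM in the knockout libraries and 29.99, 29.73 and 22.80 FPKM in the control libraries, and its log2 change was -1.22 ± 0.11 with a limma adjusted p of 0.00274. Library depth, recovered from the FPKM steps, was 17896745 to 19309104 reads in knockout and 18389541 to 20073979 reads in control. The deposited FPKM are scaled by size factors, so their sum differed between libraries, from 367387 to 391438 in knockout and from 388188 to 416119 in control. Of the marker lists for 8 cell types, none had a gene at 0 in all 6 libraries, and the 10 cardiomyocyte markers summed to 13765 to 15201 FPKM in knockout and to 12650 to 16088 FPKM in control. The erythroid list varied most in absolute level, from 7920 to 16538 FPKM in knockout and from 8053 to 18024 FPKM in control. The low neural crest and neuron list summed to 11.07 FPKM in knockout library 1 and to 2.78 and 2.95 FPKM in knockout libraries 2 and 3. In control it summed to 2.59 to 4.30 FPKM. The called marker was Mylpf, a fast skeletal muscle light chain, with 23.8 ± 2.5 FPKM in knockout and 5.77 ± 1.69 FPKM in control (SD, n = 3 each). Mitochondrially encoded transcripts held 4.64% to 7.10% of FPKM in knockout and 6.09% to 9.03% in control, the highest share being that of control library 3. The part of these differences in the results below was not tested.

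The ribosomal protein genes as a group stood lower in the LSD1 knockout than in 2 of the 3 control libraries, and at nearly the level of the third control. Their mean log2(FPKM + 1) was 8.40, 8.30 and 8.34 in knockout libraries 1, 2 and 3, against 8.58, 8.37 and 8.69 in control libraries 1, 2 and 3. Their share of all FPKM was 11.3%, 11.3% and 11.1% in knockout, against 12.4%, 11.2% and 13.1% in control. Control library 2 thus lay inside the range of the knockout libraries by both measures, and the groups overlapped. Over all 14149 genes the mean log2(FPKM + 1) was 2.98 in each knockout library and 2.97 to 2.98 in the control libraries.

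**Figure D1:**
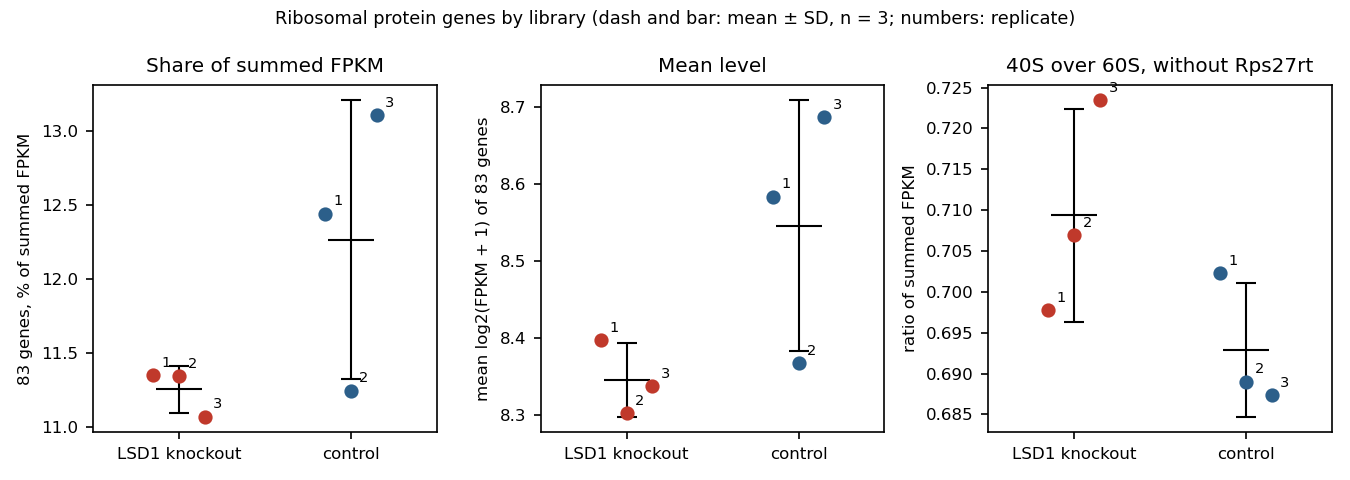
Share of summed FPKM, mean log2(FPKM + 1) and the ratio of summed 40S to summed 60S FPKM for the 83 ribosomal protein genes. LSD1 knockout is at the left of each panel and control at the right. The ratio leaves out Rps27rt and the 2 genes without a subunit. Points are libraries, and the dash and bar give the mean ± SD (n = 3). Control library 2, at 11.2% of FPKM, lies among the knockout libraries, while control libraries 1 and 3 lie at 12.4% and 13.1%; the axes do not start at 0.

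Gene by gene, the differences were small and almost all in 1 direction. The fitted change was below 0 for 79 of the 83 genes (all tested genes: 54.1%), with a median of -0.20 on the log2 scale, against -0.01 over all tested genes. The middle of the family was narrow, with quartiles at -0.25 and -0.16. The median ratio of mean FPKM was 0.865, knockout over control. After adjustment over all 14149 genes, of which 270 were called higher and 66 lower, 1 member, Rps12, was called lower (limma adjusted p under 0.05; 0.466% of all tested genes were called lower) and 0 were called higher (1.91% of all tested genes). At an unadjusted p under 0.05, 21 of the 83 genes (25.3%) were lower (7.4% of all tested genes) and 0 were higher (8.67% of all tested genes). That count moved with the scaling. It was 5 in TPM (6.02%, against 2.8% of all tested genes) and 4 under quantile normalization (4.82%, against 6.92%). When haemoglobin and mitochondrial genes were left out of the scaling it was 4 (4.82%, against 3.48%), and 6 when the family itself was left out (7.23%, against 3.34%). With no filter on low values it was 10 (12.0%, against 4.89%), and with voom on recovered reads 41 (49.4%, against 7.44%). The median change was -0.12 in TPM and -0.07 under quantile normalization. The lowest adjusted p among the members not called was 0.128, for Rpl13a.

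In 27 of the 83 genes every knockout library lay below every control library (10.4% of all tested genes), and in 0 genes every knockout library lay above. Control library 2 was the lowest control in 80 of the 83 genes, and in 53 of these it did not exceed the highest knockout library. Without control library 2, all 3 knockout libraries lay below the other controls in 77 genes (92.8%, against 16.3% of all tested genes), the median change was -0.29 and 64 genes (77.1%, against 7.15% of all tested genes) were lower at an unadjusted p under 0.05. Without control library 3, which was the highest of the 6 libraries in 63 genes, the count of genes with no overlap stayed at 27 (32.5%, against 21.8% of all tested genes), the median change was -0.14 and 6 genes (7.23%, against 10.6% of all tested genes) were lower at an unadjusted p under 0.05. Without control library 1 that count was 3 (3.61%, against 4.83%), and without knockout library 1, 2 or 3 it was 10, 8 or 4 (12.0%, 9.64% and 4.82%, against 6.45%, 5.49% and 4.96%). The share of members below this threshold thus lay far above that of all tested genes without control library 2 and under it without control library 1, control library 3 or knockout library 3. The median difference between the knockout mean and control library 2 alone was -0.04, against -0.02 over all tested genes.

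Highly expressed genes outside the family also lay mostly below 0. Of the 504 other genes that averaged 100 FPKM or more, 391 (77.6%) had a fitted change below 0, their median was -0.11, and 23.6% had every knockout library below every control. Among the 74 ribosomal protein genes at that level, 71 had a fitted change below 0, the median was -0.20 and 32.4% had no overlap. The part of level in the difference was not tested.

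**Figure D2:**
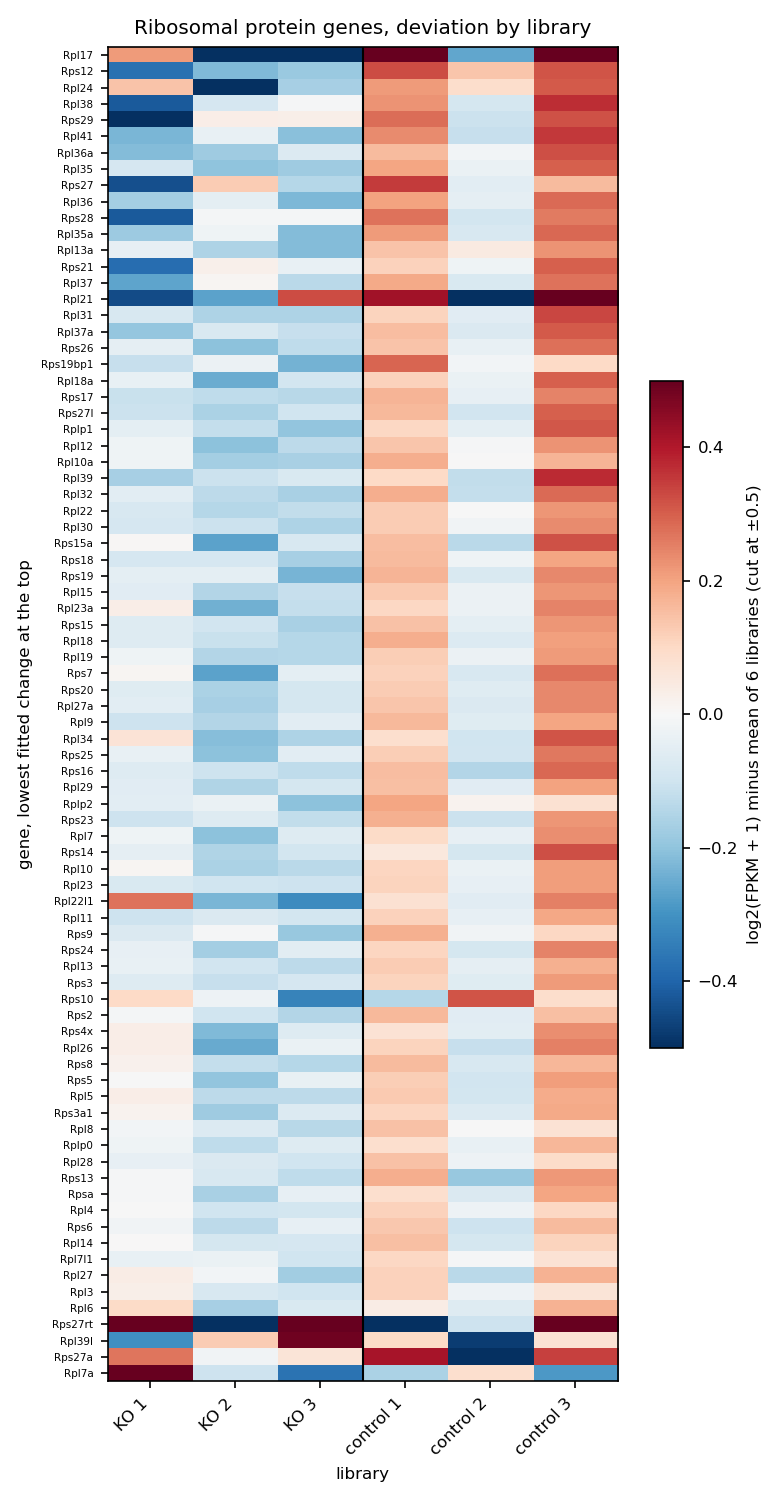
Deviation of each of 82 ribosomal protein genes from its mean over the 6 libraries, on the log2(FPKM + 1) scale, with the LSD1 knockout libraries at the left of the line and control libraries at the right; rows run from the lowest to the highest fitted change. Control libraries 1 and 3 are red in nearly every row, while control library 2 is pale or blue like the knockout libraries.

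In both subunits most genes had a fitted change below 0. The 33 genes of the 40S subunit had a median change of -0.19, with 31 below 0 and 8 (24.2%) with no overlap between groups. The 48 genes of the 60S subunit had a median of -0.21, with 46 below 0 and 17 (35.4%) with no overlap. Every knockout library lay below every control library in 10.4% of all tested genes. For genes outside the family at 100 FPKM or more that share was 23.6%, near that of the 40S genes. Summed FPKM of the 40S genes over that of the 60S genes was 0.727, 0.715 and 0.749 in knockout, against 0.709, 0.705 and 0.714 in control. The 40S sum includes Rps27rt, whose level varied between libraries as described below and whose coding sequence equals that of Rps27. Without Rps27rt the ratio was 0.698, 0.707 and 0.723 in knockout and 0.702, 0.689 and 0.687 in control, and the groups overlapped. Leaving Rps27rt out also takes out reads that may come from Rps27. The ratio with the reads of both genes kept together was not computed, so whether the separation rests on Rps27rt was not tested.

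**Figure D3:**
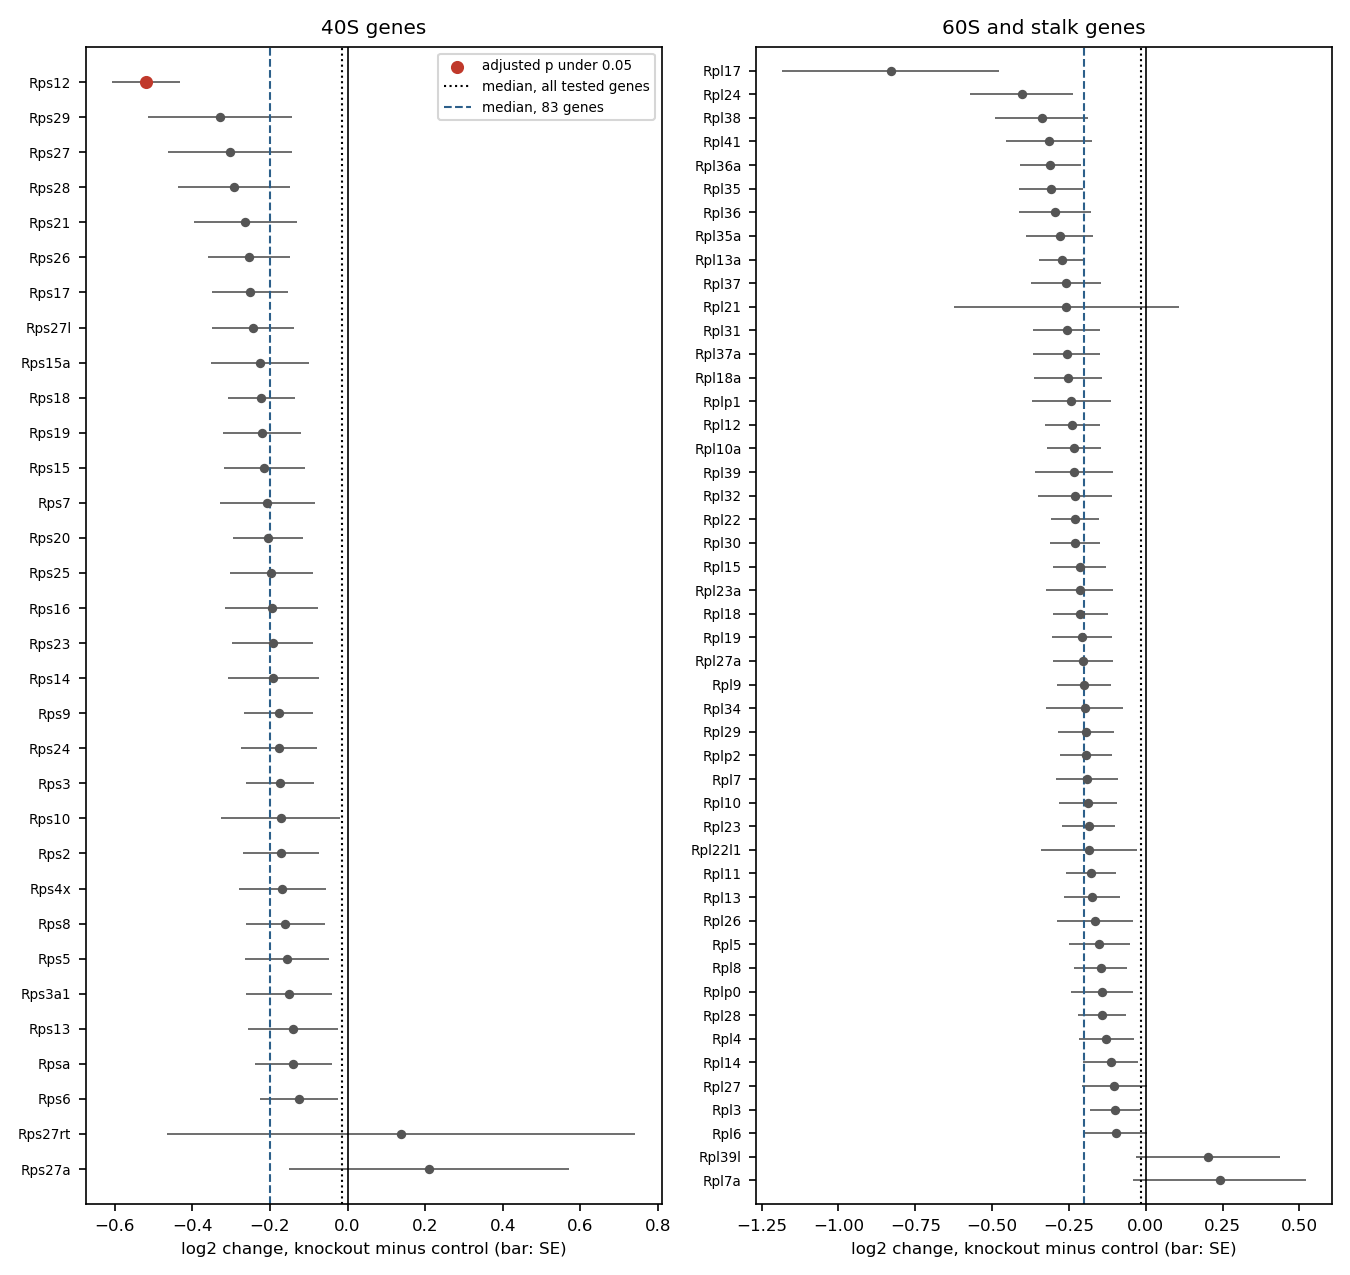
Fitted log2 change, LSD1 knockout minus control, with its standard error for 32 genes of the 40S subunit (left) and 48 of the 60S subunit (right); the dashed line is the median of the 83 genes (-0.20) and the dotted line that of all tested genes (-0.01). Rps12, in red, is the called gene at -0.52, and the 4 genes above 0 have long error bars.

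Rps12, a gene of the 40S subunit, was the called member and fell in the knockout. The gene lies at chr10:23785183-23787275 on the minus strand (GRCm38) and hosts 3 small nucleolar RNA (snoRNA) genes, Snora33, Snord100 and Gm23130, which cover 13.7% of its exon bases. It had 201.6, 224.4 and 229.5 FPKM in the knockout libraries and 327.9, 288.0 and 325.4 FPKM in the control libraries. Every knockout library was below every control library, and control library 2 was again the lowest control. The mean was 218.5 ± 14.9 FPKM in knockout and 313.8 ± 22.3 FPKM in control (SD, n = 3 each), a log2 change of -0.52 ± 0.087 (SE; adjusted p = 0.0273). The call was lost in 10 of 20 alternative settings, among them 5 of the 6 fits without 1 library, where its adjusted p reached 0.0987.

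Rps12 shared 71.1% of its 100-base windows, most of them with Rps12-ps3, which the annotation lists as protein-coding and which had 795, 549 and 707 FPKM in knockout and 691, 668 and 926 FPKM in control. Its log2 change was -0.16 ± 0.17 (SE; adjusted p = 0.714) and its groups overlapped; whether it differed from the change of Rps12 was not tested. With the reads of all 24 named copies added, Rps12 had 404, 366 and 413 FPKM in knockout and 506, 457 and 561 FPKM in control. The knockout libraries still lay below the controls, but the log2 change was -0.36 ± 0.099 (SE) and the adjusted p 0.123, so the gene was no longer called; over the 20 alternative settings the adjusted p ran from 0.00462 to 0.123.

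**Figure D4:**
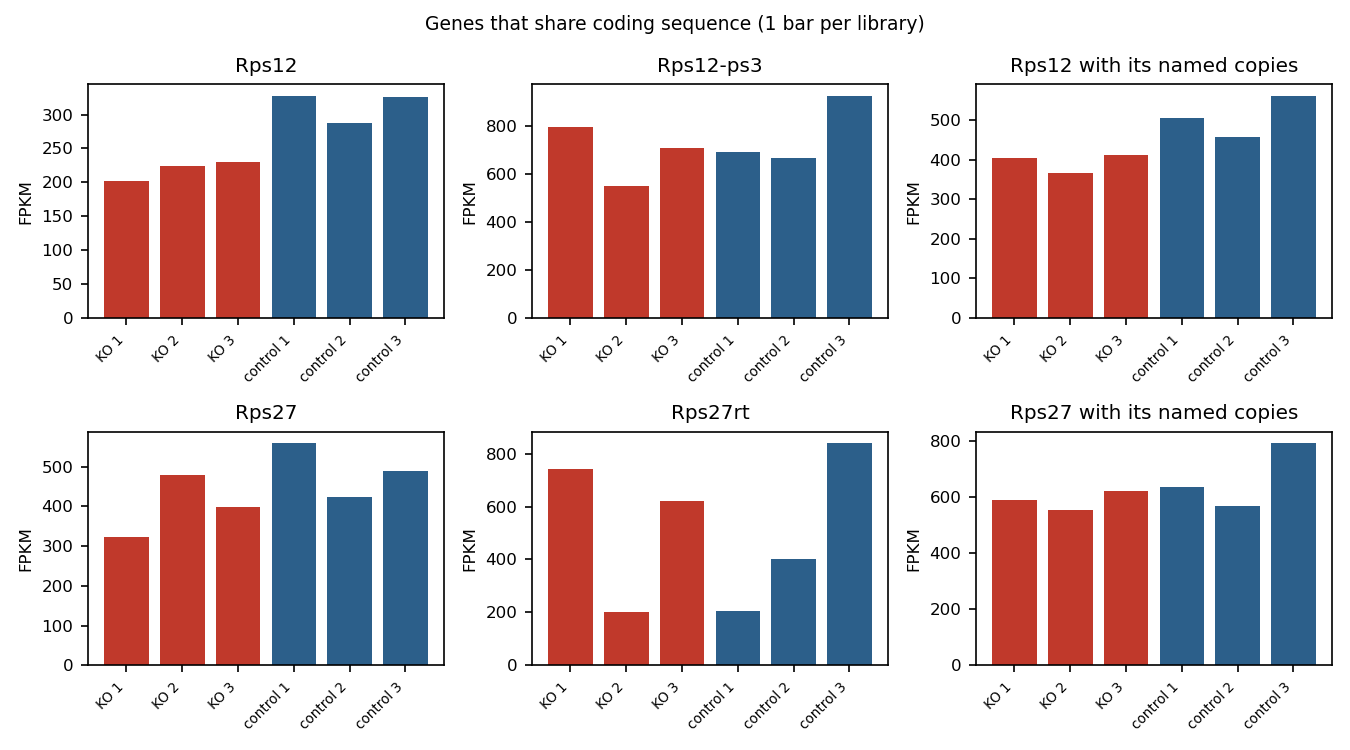
FPKM in each library for Rps12, its copy Rps12-ps3 and Rps12 with the reads of all named copies added (top), and the same for Rps27 and Rps27rt (bottom), with the 3 LSD1 knockout libraries at the left in red and the 3 control libraries at the right in blue. Rps27rt spans 200 to 742 FPKM in knockout and 205 to 840 FPKM in control, and the sum with Rps27 varies less.

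In 6 members the coefficient of variation of 1 group passed 40%, against a median of 10.8% for the higher of the 2 groups' values over all members: Rps27rt, Rpl17, Rpl7a, Rps27a, Rpl21 and Rpl39l. Rps27rt, the copy of the 40S gene Rps27, had 742, 200 and 623 FPKM in knockout and 205, 402 and 840 FPKM in control. Rps27 itself had 324, 480 and 398 FPKM in knockout and 560, 424 and 491 FPKM in control, and among the knockout libraries the order of the 2 genes was opposite. With the copies added, Rps27 had 590, 552 and 621 FPKM in knockout and 634, 568 and 792 FPKM in control, with a log2 change of -0.17 (adjusted p = 0.577). The paralogue Rps27l, known as a p53 target, shared no 100-base window with any gene. It had 223.9, 215.8 and 224.9 FPKM in knockout and 270.2, 225.4 and 296.5 FPKM in control, with no overlap, a log2 change of -0.24 and an adjusted p of 0.313.

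Rpl17, of the 60S exit tunnel rim, had the lowest fitted change of the family at -0.83 ± 0.35 (SE; adjusted p = 0.306). It had 620, 292 and 356 FPKM in knockout and 796, 446 and 1021 FPKM in control, so that knockout library 1 lay above control library 2. The gene shared 77.1% of its windows with copies. With 11 named copies added it had 1071, 844 and 953 FPKM in knockout and 1256, 944 and 1425 FPKM in control, and the change was -0.32 (adjusted p = 0.379).

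The 4 members with a fitted change above 0 were Rpl7a, Rps27a, Rpl39l and Rps27rt, and 0 of them passed the test. Rpl7a, a 60S gene that hosts 3 snoRNA genes, had 205.6, 106.7 and 88.8 FPKM in knockout and 102.9, 122.0 and 94.0 FPKM in control. Without knockout library 1 its log2 change was -0.12. Rps27a, which codes for a fusion of ubiquitin with a 40S protein, had 385.2, 315.9 and 334.8 FPKM in knockout and 426.6, 151.7 and 405.9 FPKM in control. Without control library 2 its log2 change was -0.27. Rpl39l, a paralogue best known from testis, had 0.20, 0.62 and 1.08 FPKM in knockout and 0.59, 0.07 and 0.56 FPKM in control, and the groups overlapped.

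Apart from the paralogue Rpl39l, the lowest FPKM among the genes of either subunit were those of Rps10, Rpl24 and Rpl13a. Rps10, a 40S gene, had 1.80, 1.56 and 1.07 FPKM in knockout and 1.36, 2.24 and 1.77 FPKM in control. It shares 75.7% of its windows, most with the readthrough gene RPS10-NUDT3, and its named copies held 4748 to 5600 reads in knockout and 4862 to 6351 reads in control, against 44 to 75 and 58 to 92 reads for Rps10 itself. Rpl24, a 60S gene on chromosome 16, had 10.5, 5.95 and 8.26 FPKM in knockout and 11.05, 10.04 and 11.87 FPKM in control, and 47.0% of its exon bases lie under Gm28037. Rpl13a, known for its release from the ribosome after interferon gamma, had 36.1, 33.3 and 31.8 FPKM in knockout and 41.1, 38.3 and 43.5 FPKM in control, with a log2 change of -0.27 ± 0.075 (SE; adjusted p = 0.128) and no overlap. Rpl24 has 0 named copies, and the 1 named copy of Rpl13a held 0 to 2 reads in knockout and 0 in control. Both share sequence with genes of other names. Rpl24 shares 80.1% of its windows, most with Gm28037, and Rpl13a shares 55.2%, most with Gm45713. Of the exon bases of Rpl13a, 35.4% lie under Gm45713, Mir5121 and Snord33. The part of read sharing in the low levels of these genes was not tested.

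The highest members were the stalk protein Rplp1, the 40S gene Rps3a1, the stalk scaffold Rplp0, the 60S gene Rpl36 and the 40S gene Rps15. Rplp1 had 3131, 2976 and 2825 FPKM in knockout and 3473, 3125 and 4016 FPKM in control. Control library 2, at 3125 FPKM, lay below knockout library 1, and the log2 change was -0.24 ± 0.13 (SE; adjusted p = 0.403). Rplp0 had 1779, 1655 and 1726 FPKM in knockout and 1916, 1763 and 2027 FPKM in control (log2 change -0.14, adjusted p = 0.532). Rplp2 had 245, 248 and 221 FPKM in knockout and 292, 257 and 268 FPKM in control, with no overlap (log2 change -0.19, adjusted p = 0.309). Rps3a1 and Rps15 had changes of -0.15 and -0.21, with adjusted p of 0.559 and 0.363. Rpl36 had 1363, 1481 and 1313 FPKM in knockout and 1764, 1487 and 1865 FPKM in control, a change of -0.29 with an adjusted p of 0.275.

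The genes with known roles in p53 control, anaemia and growth signalling lay within the range of the family. Rpl5 had 410, 367 and 367 FPKM in knockout and 440, 377 and 457 FPKM in control. Rpl11, its partner in binding MDM2, had 278.5, 284.5 and 281.2 FPKM in knockout and 324.1, 291.4 and 343.1 FPKM in control, with no overlap. Rps19 had 155.9, 155.8 and 137.0 FPKM in knockout and 181.3, 152.9 and 190.4 FPKM in control. Rps14, lost in the 5q- syndrome, had a change of -0.19, and Rps6 one of -0.13. Rpsa, also known as the laminin receptor, had 750, 674 and 733 FPKM in knockout and 799, 717 and 864 FPKM in control, a change of -0.14. The adjusted p of these 6 genes lay between 0.335 for Rpl11 and 0.589 for Rps6.

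The 4 X-linked members were Rpl10, Rpl36a, Rpl39 and Rps4x, with changes between -0.31 and -0.17. Rpl36a had 222.0, 228.4 and 246.1 FPKM in knockout and 288.3, 255.7 and 323.6 FPKM in control, with no overlap and an adjusted p of 0.183. Knockout library 3 was the one with clear Xist (12.1 FPKM) and with the Y-linked Ddx3y at 0, while knockout library 1 had 1.11 FPKM of Xist beside 14.3 FPKM of Ddx3y. Knockout library 2 had 0 FPKM of Xist and 14.3 FPKM of Ddx3y. The control libraries had 0 to 0.013 FPKM of Xist and 13.0 to 13.8 FPKM of Ddx3y, so these genes were not balanced between the groups. The part of this in the results was not tested. Rps4x had 1047, 877 and 977 FPKM in knockout and 1076, 985 and 1202 FPKM in control. In Rps4x and Rpl10 knockout library 3 lay between the other knockout libraries, while in Rpl36a and Rpl39 it was the highest of the 3.

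Paralogues stood below their parent genes in FPKM. Rpl22l1 had 76.1, 53.5 and 50.4 FPKM in knockout and 66.4, 60.6 and 75.2 FPKM in control, with overlap, while its parent Rpl22 had 183.9, 176.3 and 178.6 FPKM in knockout and 212.5, 194.4 and 227.1 FPKM in control, with none. Rpl3l, the striated muscle paralogue of Rpl3, had 0.24, 0.53 and 0.72 FPKM in knockout and 0.33, 0.27 and 0.47 FPKM in control, below the filter. Rpl3 had 508, 471 and 465 FPKM in knockout and 539, 489 and 520 FPKM in control. Rpl39l was given above, and its parent Rpl39 had 448, 466 and 476 FPKM in knockout and 539, 461 and 652 FPKM in control. Rpl36al had 0.29, 0.19 and 0.66 FPKM in knockout and 0.52, 0.50 and 0.34 FPKM in control, and Rpl10l was listed at 0 in all 6 libraries. Rpl7l1 had 41.9, 42.1 and 40.1 FPKM in knockout and 46.3, 42.8 and 45.3 FPKM in control, with no overlap, and Rpl7 had 609, 536 and 591 FPKM in knockout and 660, 599 and 725 FPKM in control. Rps19bp1 had 22.1, 23.5 and 20.2 FPKM in knockout and 29.5, 23.8 and 25.8 FPKM in control, with no overlap and an adjusted p of 0.247.

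Among the remaining genes at the ends of the order, Rpl38, Rps29, Rpl41 and Rpl35 had fitted changes of -0.34, -0.33, -0.32 and -0.31. Rpl38, a 60S protein known for its role in translating Hox mRNAs in mouse embryos, had 482, 609 and 642 FPKM in knockout and 753, 608 and 833 FPKM in control. Rps29 had 451, 679 and 677 FPKM in knockout and 805, 616 and 828 FPKM in control. Rpl35 had 492, 453 and 461 FPKM in knockout and 597, 509 and 642 FPKM in control, with no overlap and an adjusted p of 0.200, though 66.2% of its exon bases lie under Arpc5l and Wdr38. At the other end Rpl27, Rpl3 and Rpl6 each had a change of -0.10, and the groups of each overlapped.

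Members with short coding sequences had a lower median change than the others, but were not more often separated between groups. The 12 members with fewer than 100 coding residues had a median change of -0.26, and the 71 others one of -0.20. Of the 12, 2 had no overlap (16.7%), against 25 of the 71 others (35.2%) and 10.4% of all tested genes. At an unadjusted limma p under 0.05, 1 of the 12 was lower, against 20 of the 71 others and 7.4% of all tested genes. Among the 12, Rps27rt and Rpl39l had a fitted change above 0. Across the 83 genes, which share all 6 libraries and are no replicates, the change and the coding length had a Spearman rho of 0.55 and a Pearson r of 0.23. In 10 of the 12 short genes knockout library 1 was the lowest of the 3 knockouts, against 4 of the 71 others. The median difference of knockout library 1 from the mean of the other knockouts was -0.29 in the short genes and 0.09 in the others. In Rps29, the clearest case, knockout library 1 had 451 FPKM and the other knockouts 679 and 677 FPKM.

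**Figure D5:**
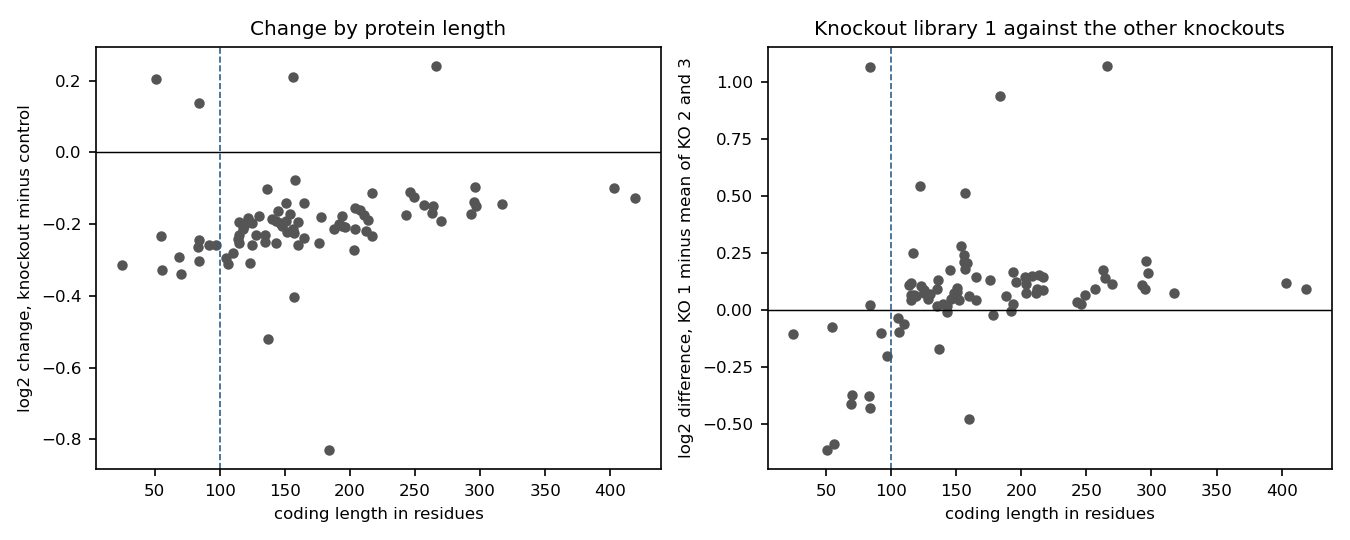
Coding length in residues of the 83 ribosomal protein genes against the fitted log2 change, LSD1 knockout minus control (left), and against the log2 difference of knockout library 1 from the mean of knockout libraries 2 and 3 (right); each point is a gene and the dashed line marks 100 residues. Most of the 12 shorter genes lie below 0 in the right panel, with a median of -0.29.

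The 30 members with annotated snoRNA genes inside them, 58 in all, had a median change of -0.19 and 9 with no overlap, and the 53 without had a median of -0.21 and 18 with no overlap. The 37 members that shared at least 50% of their windows had a median of -0.20, as did the 46 others. These are counts over the same 6 libraries and were not tested against each other.

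The wider translation machinery held no called gene, and its lists had medians below 0 except for the S6 kinases. Over 163 genes of 9 lists that are no member, 0 were called in either direction. At an unadjusted p under 0.05, 10 (6.13%) were lower and 3 (1.84%) were higher by limma, against 7.4% and 8.67% of all tested genes, and voom on recovered reads called 2 lower, Eif4ebp1 and Polr1e. The median change was -0.08, with 135 of 163 below 0 (82.8%, against 54.1% of all tested genes). Among ribosomal proteins with other symbols, Fau had 845, 819 and 815 FPKM in knockout and 945, 855 and 1008 FPKM in control, a change of -0.18 (adjusted p = 0.396). Rack1, which sits on the head of the 40S subunit, had a change of -0.07.

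The 15 other genes known for a pyrimidine tract had a median of -0.14, all 15 below 0 and 5 with no overlap (10.4% of all tested genes). Naca, a chaperone of nascent chains, and Eif3h, an initiation factor subunit, had changes of -0.22 and -0.20, with adjusted p of 0.197 and 0.247. The 38 initiation factors had a median of -0.09, with 33 below 0. The translation repressor Eif4ebp1 had 88.8, 94.0 and 85.4 FPKM in knockout and 122.1, 109.1 and 110.0 FPKM in control, a change of -0.34 ± 0.074 (SE; adjusted p = 0.0648). Eif4a1, the initiation helicase, had a change of -0.21 (adjusted p = 0.232). The 10 elongation and termination factors had a median of -0.11, with Gspt1 at -0.17 and Eef1b2 at -0.16.

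The 59 ribosome biogenesis factors had a median of -0.09, with 51 below 0, led by Rrs1 and Eif6 at -0.20 and -0.19 (adjusted p = 0.245 and 0.255). Of the 15 genes of RNA polymerase I and its factors, 12 were below 0. The subunit gene Polr1e had 11.02, 9.005 and 8.448 FPKM in knockout and 12.55, 12.59 and 14.01 FPKM in control, with no overlap (change -0.43, adjusted p = 0.0844), and Ubtf had a change of -0.16 (adjusted p = 0.244). The 9 tested snoRNA hosts that code for no ribosomal protein had a median of -0.13, with Snhg18 at 0.23 and Snhg8 at -0.32. The 10 S6 kinases had a median of 0.04, with Rps6ka2 at 0.28 (adjusted p = 0.277) and Rps6ka1 at 0.19. Of the 14 growth control genes, the p53 target Cdkn1a, an inhibitor of the cell cycle, had 12.1, 11.6 and 13.4 FPKM in knockout and 9.07, 8.95 and 10.7 FPKM in control, with no overlap (change 0.34, adjusted p = 0.108), and Larp4 had a change of -0.11.

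The 3 other genes whose log2(FPKM + 1) over the 6 libraries was most like the mean of the family were 2210408I21Rik, Polr1d and Txndc9, with Pearson r of 0.997, 0.993 and 0.992. Of these, 2210408I21Rik averaged 1.10 FPKM, not far above the filter of 0.5 FPKM. Polr1d, a subunit shared by RNA polymerases I and III, had 30.88, 28.92 and 30.16 FPKM in knockout and 33.8, 30.7 and 35.6 FPKM in control. Its control library 2 lay among the knockout libraries, but the gene was picked for following the family over these same libraries. An r of at least 0.9 with that mean was seen for 56 of the 83 members, which are part of the mean, and for 228 of 14066 other tested genes.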

How the data were processed

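Total RNA of heart ventricles was made into libraries with a NEBNext Ultra kit, which does not mark strand, per the labels' protocols. Alignment to mm10 with HISAT2 2.0.5 and counting with featureCounts 1.5.0-p3, beside fastp and CASAVA, are listed in the submitters' processing notes; read length and the treatment of reads with several matches are not given. What the authors deposited is 1 table of FPKM for 54532 gene IDs. Names, exons and coordinates came from GENCODE M21 (GRCm38, the assembly of mm10), which held 54409 of the IDs. FPKM times exon length gave whole reads (within 0.02) for 98.1% to 98.5% of values under 30 reads; the scaling total divided by a median-of-ratios size factor was the same in the 6 libraries to within rounding, so the FPKM are scaled by size factors.

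Genes that averaged 0.5 FPKM or more were tested on log2(FPKM + 1), a scale that understates the change of low genes, with limma 3.58.1 in R 4.3.3: mean-variance trend, two-sided, genotype alone, Benjamini-Hochberg over all 14149 genes, called at adjusted p under 0.05. Read sharing was scored over 100-base windows of the lowest-numbered coding transcript, which replaced the longest reading frame after Rps12 was seen not to line up with its copy; such a transcript is not always the main isoform. The members, the gene lists and the marker lists were chosen with earlier results of these data known. Members named are every called one, the 8 highest and 8 lowest changes, the 5 highest and 5 lowest levels, paralogues with parents, stalk, X-linked and disease or signalling genes; from each list, up to 4 called genes or, failing that, the 2 lowest p; and the 3 genes most alike; Mylpf, Rpl21, Rps12-ps3 and the sex-linked genes were named after their values were seen. Alternatives covered pseudocount, filter, scaling, weights, trend, voom on recovered reads and single libraries left out. The procedure was tested on simulated data. Tables and figures used numpy 2.4.6, pandas 2.3.3 and matplotlib 3.10.9 under Python 3.11.15. Not every gene taken by the naming rule is reported here, and the plots that label genes leave these out.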

Additional observations from a re-analysis of the deposited data

How the results depend on the processing

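Of the 39 named members, compared in up to 20 other settings, 0 gained a call and Rps12 alone lost one. Rps12 kept its direction throughout and was not called with no filter on low values (adjusted p = 0.0861), quantile normalization (0.113), centring on the ribosomal protein genes (0.0673) or its copies' reads added (0.123), the last 2 chosen after seeing the data; each of these left 0 members called lower. Quantile normalization moved the family median to -0.067 and centring on the family to 0.030. Centring on the family shifted the median of all tested genes by 0.23 and left the difference between both medians at -0.19, as in the reported fit; rescaling to TPM left it at -0.18 and quantile normalization at -0.05. All genes called higher numbered 110 with no filter, 132 at 5 FPKM or more and 1464 when centred on the family; those called lower numbered 12 with no filter, 40 in TPM, 43 when rescaled without the family, 112 with library weights and 26 when centred on it. Other translation genes called higher numbered 1 in TPM, 1 without the family (Cdkn1a both times) and 4 when centred on it (Cdkn1a, Snhg18, Rps6ka1 and Rps6ka2); those called lower numbered 1 with weights (Eif4ebp1) and 2 with voom (Eif4ebp1 and Polr1e). Leaving out 1 library gave 0 to 1 member called lower, 111 to 273 genes higher and 23 to 108 lower, 0 to 1 other translation gene in each direction (Cdkn1a higher, Mycn or Polr1e lower) and a family median of -0.29 to -0.14. Of the 83 members, 79 had a fitted change below 0 in the reported fit, 68 under quantile normalization and 30 when centred on the family. Among the named members, fitted changes turned positive under quantile normalization for Rpl6 (0.017), Rplp0 (0.0015), Rps14 (0.0066), Rps15 (0.00051), Rps4x (0.0067) and Rps6 (0.043). Sign changes from centring on the family are not listed by gene. With 1 library left out, Rpl7a ranged from -0.12 (without knockout replicate 1) to 0.48, Rps27a from -0.27 (without control replicate 2) to 0.47 and Rps27rt from -0.36 (without control replicate 1) to 0.72; the cause was not tested. With the replicate number as a block, 0 members were called lower (Rps12 limma adjusted p = 0.0578), and 220 genes were higher and 64 lower. Same-numbered libraries deviated together with r of -0.0021, 0.14 and 0.16, and other-numbered ones with r from -0.19 to 0.080. Whether the numbers pair the samples is not given by the labels and was not settled by these values. Depth limits members with few reads, such as Rpl39l with 3 to 16 reads in knockout and 1 to 9 in control.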

Other observations

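The named copies of ribosomal protein genes, symbols with -ps and a number or rt, are mostly processed pseudogenes without introns. The annotation held 300 of them in the table, and 108 reached a mean of 0.5 FPKM. Their recovered reads summed to 62414, 58629 and 59754 in the LSD1 knockout libraries and to 61982, 56287 and 72168 in the control libraries, so the groups overlapped. The median log2 change of the tested copies was -0.11, with 79 of 108 below 0, and 0 were called lower. Rpl27-ps2, named after its value was seen, was called higher (log2 change 0.74 ± 0.11 SE, limma adjusted p = 0.0170). It had 1.39, 1.03 and 0.98 FPKM in knockout and 0.27, 0.28 and 0.26 FPKM in control. The control values lie under the filter of 0.5 FPKM, which the copy passed only through its knockout values. Its call is thus given as a description only. Rpl27 itself had 411, 397 and 355 FPKM in knockout and 435, 365 and 452 FPKM in control.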
